A study of Drosophila melanogaster with 3 samples.

Results

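The nuclear genes for the mitochondrial respiratory chain and ATP synthase were examined for binding of Lozenge (lz), a Runx-family transcription factor, in whole white prepupae of *Drosophila melanogaster*, animals that are entering metamorphosis. The genes were taken by symbol: all protein-coding genes of the dm6 Ensembl models whose symbol starts with ND-, UQCR-, COX and a digit, or ATPsyn. This gave 80 of 13968 protein-coding genes on the nuclear chromosomes. Of the 80, 40 encode proteins of complex I, 9 of complex III, 16 of complex IV and 15 of ATP synthase. ND-MLRQ is counted in complex I by its name, although its human counterpart, NDUFA4, has since been assigned to complex IV. The RefSeq names of 21 of them describe a protein "like" another subunit. These are gene duplicates, marked by the suffix L, and the other 59 are here called the standard subunit genes.

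Complexes I to IV of the inner mitochondrial membrane pass electrons from NADH and succinate to oxygen, and ATP synthase uses the proton gradient that this builds to make ATP. Most subunits are encoded in the nucleus and a few in the mitochondrial genome, so an assembled complex draws on both genomes. In *Drosophila*, many of the L duplicates of these genes are known to be expressed mainly in the testis, while the standard genes are expressed in most tissues.

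Chromatin from flies carrying lz with GFP fused to its C-terminus was precipitated with an antibody to GFP after sonication, and the DNA was sequenced (ChIP-seq). The animals were pooled males and females, and the labels list a separate biological sample for each of 3 biological replicates. These form 1 group, with no second genotype, stage or treatment, so the comparisons below are between genes, and none between groups of genes was tested. Cell types in which lz works, such as the crystal cells of the blood and the developing eye, are a small part of a whole animal, and the lists cannot tell which cells gave a peak.

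The deposited lists hold 30000 calls (peaks and background regions) for each replicate and for the pooled replicates, and 8048 peaks that passed the authors' reproducibility threshold, which are the 8048 strongest pooled calls. A rank of 1 is the strongest call in its list, by the authors' signal value. The read depth is unknown. A gene was said to have a promoter summit when the summit of a thresholded peak lay within 500 bp of any of its own annotated transcription start sites (TSS). Replicates were compared over their own 8048 strongest calls. A replicate rank given for a gene is that of its strongest call within 500 bp of an own TSS. This call need not be at the pooled summit. Replicate 2 listed calls at fewer promoters than the others: its 30000 calls reached 5426 genes, against 7477 in replicate 1 and 7243 in replicate 3.

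A promoter summit was present at 22 of the 80 genes (27.5%, 95% Wilson interval 18.9 to 38.1), against 26.9% of all protein-coding genes. The family as a whole was therefore near the genome's background. Among the strongest calls of single replicates, 27 of the 80 genes had a promoter summit in replicate 1, where the background was 29.5%, 24 in replicate 2 (background 23.4%) and 21 in replicate 3 (background 26.7%), a mean of 30.0% ± 3.75 (SD, n = 3). All 3 replicates placed a summit at 14 of the genes (17.5%, background 19.2%). When replicate 1 was left out and a thresholded peak had to be matched in both others, 14 of the 80 genes had a promoter summit. The same rule gave 2662 of all 13968 protein-coding genes, where the thresholded list gave 3763. In the whole pooled list, 51 of the 80 had a call at the promoter (63.7%, background 48.5%).

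The family split by gene type. All 22 genes with a promoter summit were standard subunit genes (22 of 59, 37.3%, interval 26.1 to 50), and none of the 21 duplicates had one (upper Wilson bound 15.5%). By complex, and leaving out the duplicates, promoter summits were found at 13 of 34 genes of complex I, 2 of 6 of complex III, 4 of 8 of complex IV and 3 of 11 of ATP synthase. The intervals of these shares overlap, from 23.9 to 55.0% for complex I and from 9.75 to 56.6% for ATP synthase. In complex IV, the 8 standard genes gave 4 in replicate 1, 2 in replicate 2 and 5 in replicate 3, so replicates of a single complex differ widely. Without replicate 1, 2 or 3 the counts were 0, 1 or 1 for complex III, 2, 4 or 2 for complex IV, 9, 10 or 10 for complex I and 3 each time for ATP synthase.

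**Figure D1:**
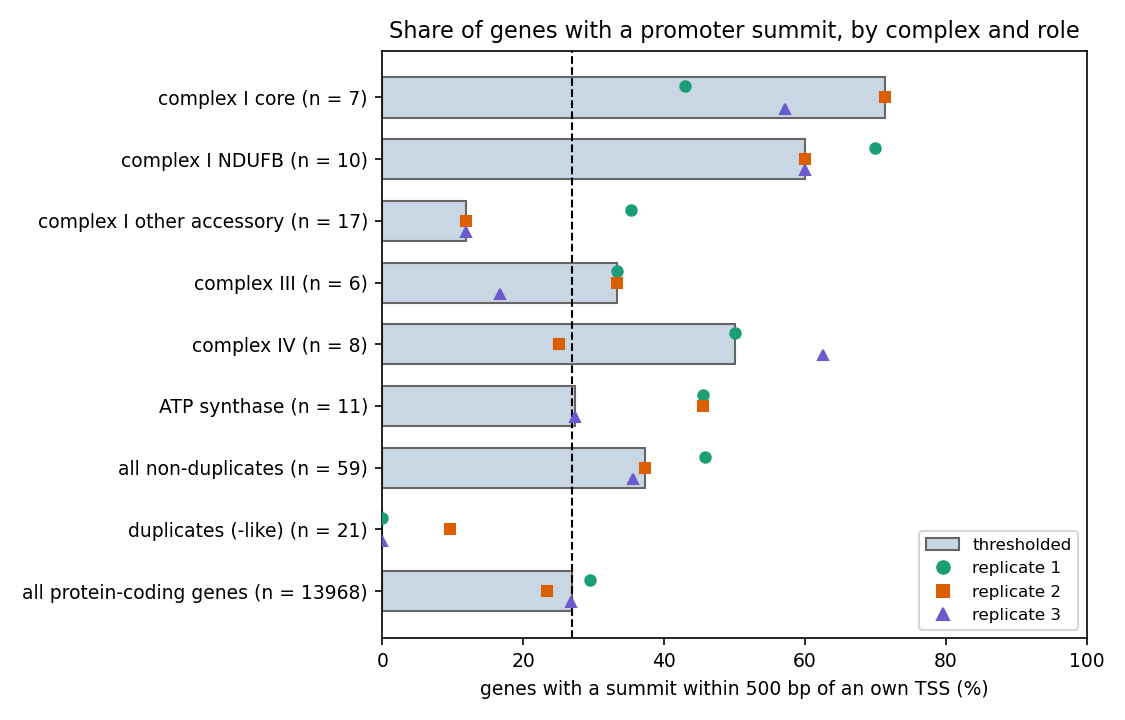
Share of genes with a summit within 500 bp of an own TSS (x axis, percent) for groups of genes (y axis, with their numbers). Bars show the thresholded list, points the 8048 strongest calls of each replicate, and the dashed line the share of all protein-coding genes, 26.9%. The duplicates have no bar, and core and NDUFB genes of complex I lie to the right of the line in all 3 replicates.

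Within complex I, 11 of the 13 summits were at core genes or genes of the NDUFB series. The core subunits carry the flavin and iron-sulfur clusters through which electrons pass from NADH to quinone, or form the quinone site. Promoter summits were present at 5 of the 7 nuclear core genes, namely ND-51, ND-24, ND-20, ND-23 and ND-49. The genes of the NDUFB series, named after their human counterparts and lying mostly in the distal membrane arm, had 6 of 10 (ND-ASHI, ND-SGDH, ND-MNLL, ND-B17, ND-B22 and ND-B18). Of the 17 other accessory genes, 2 had a promoter summit (ND-MWFE and ND-42). In single replicates the core genes had 3, 5 and 4 of 7 in replicates 1, 2 and 3, the NDUFB genes 7, 6 and 6 of 10, and the other accessory genes 6, 2 and 2 of 17. The first 2 classes lay above the other accessory genes in every replicate, by least in replicate 1. In the whole pooled list the gap was smaller, with calls at 85.7% of core, 90.0% of NDUFB and 70.6% of other accessory genes. The core count also fell most of the 3 when thresholded peaks had to be matched in both remaining replicates. Without replicate 1, 2 or 3 it was 2, 2 or 3 of 7. The NDUFB genes then had 5, 6 or 5 of 10 and the others 2 of 17 each time.

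The strongest summit in the family was at ND-ASHI, the fly counterpart of human NDUFB8. It ranked 212 in replicate 1, 343 in replicate 2 and 205 in replicate 3, and 232 in the pooled list. The peak (dm6 chrX:6679164-6679542) lies 251 bp upstream of the outermost ND-ASHI start and in an intron of Fum1, the gene for fumarase of the citric acid cycle, which runs in the opposite direction. A weaker peak, of rank 6604, lies 41 bp upstream of an inner ND-ASHI start, in the ND-ASHI 5′ UTR.

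ND-MWFE, whose product is a small membrane-arm subunit, followed with a pooled rank of 580. Its ranks were 594, 301 and 1094 in replicates 1, 2 and 3. That summit, on arm 2R, was nearer to the start of TppII, a peptidase gene on the other strand, at 27 bp, than to the ND-MWFE start, at 194 bp. ND-42, the counterpart of NDUFA10, ranked 1679 in the pooled list, with 2162, 1471 and 1569 in the replicates. Its strongest summit lay 26 bp inside the start of Cchl, in the 5′ UTR of that gene, which encodes the enzyme that attaches heme to cytochrome c. A summit of rank 1985 lay 56 bp upstream of ND-42 itself, in the interval between the starts of this pair of mitochondrial genes.

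Among the core genes, ND-24 and ND-51 encode the NADH-binding tip of the peripheral arm, the counterparts of NDUFV2 and NDUFV1. ND-24 ranked 1207, 1052 and 1398 in replicates 1, 2 and 3, and ND-51 ranked 987, 1296 and 2313. Both were thus among the strongest 8048 calls of every replicate, with pooled ranks of 1175 and 1372. The ND-24 summit was the farthest downstream of a start among the 22 strongest promoter summits, 88 bp into the 5′ UTR. The quinone-side core genes were weaker. ND-20 ranked 6520, 6872 and 12657, and ND-23 ranked 8743, 7250 and 7631. At ND-23 the nearest replicate 2 call lay 150 bp from the pooled summit. ND-49, on chromosome 4, had a pooled rank of 7332. Its strongest calls within 500 bp of a start ranked 9149, 11903 and 15009, which is below the strongest 8048 in all 3 replicates. The nearest replicate 2 call was 207 bp from the ND-49 pooled summit, and the replicate 3 call at that summit ranked 18035.

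The remaining core genes had no promoter summit. ND-30 ranked 9824, 7818 and 7645 in the replicates and 9715 in the pooled list, and it was the only gene with a strong call in 2 replicates and none in the thresholded list. Relative to its start (negative is upstream), the ND-30 calls lay at -397 bp in the pooled list and at -392, -158 and -73 bp in the replicates. ND-75, which encodes the largest core subunit, had no pooled call at its start. A strong peak, with a pooled rank of 918 and ranks of 707, 1253 and 1033, lay 745 bp upstream of ND-75. It was nearer to the start of its neighbour CG1632, at 238 bp, and so it entered the count for the gene span but not that for the promoter.

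The other genes of the NDUFB series with a summit were called in all replicates. ND-SGDH ranked 1381, 906 and 1419, and ND-MNLL ranked 4129, 3931 and 3219. ND-B17, ND-B22 and ND-B18 had pooled ranks of 4866, 5195 and 6066. ND-B18 was the least even, at 5047, 11345 and 6145, with replicate 2 lowest. The ND-SGDH gene is flanked by further peaks, of rank 1286 near RhoGAP68F and of rank 3100 near Atg12.

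In complex III, the summits were at UQCR-C2, which encodes a core protein of the matrix side, and UQCR-14, a small subunit. UQCR-C2 ranked 4796, 12531 and 4722 in replicates 1, 2 and 3, and UQCR-14 ranked 5899, 6425 and 9897. Neither was among the 8048 strongest calls of all 3 replicates, and the partner core gene UQCR-C1 had no pooled call, only 1 in replicate 1 of rank 12117. In complex IV, the summits were at genes for small nuclear-encoded subunits that surround the catalytic core. COX7B ranked 2134, 2885 and 2433, and COX6B ranked 2827, 4411 and 4222. COX5A ranked 2929 and 2981 in replicates 1 and 3 and COX8 ranked 3253 and 4308, but replicate 2 had no call at either promoter. Its nearest calls were 7549 bp from the COX5A summit and 15753 bp from the COX8 summit, so these promoters are strong in 2 replicates and empty in the other.

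For ATP synthase, the summits were at ATPsynE, ATPsynCF6 and ATPsynbeta. ATPsynE, a subunit of the membrane part, ranked 2107, 2027 and 1859, nearly the same rank in each replicate. ATPsynCF6, coupling factor 6 of the stalk, ranked 4163, 2522 and 2451. ATPsynbeta, the catalytic subunit, ranked 3493, 5961 and 4728, all within the strongest 8048. The genes for the rotor, ATPsyngamma and ATPsynC, had pooled calls of rank 8154 and 10474, both beyond the threshold of 8048. ATPsyndelta, a subunit of the central stalk, had no pooled call.

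**Figure D2:**
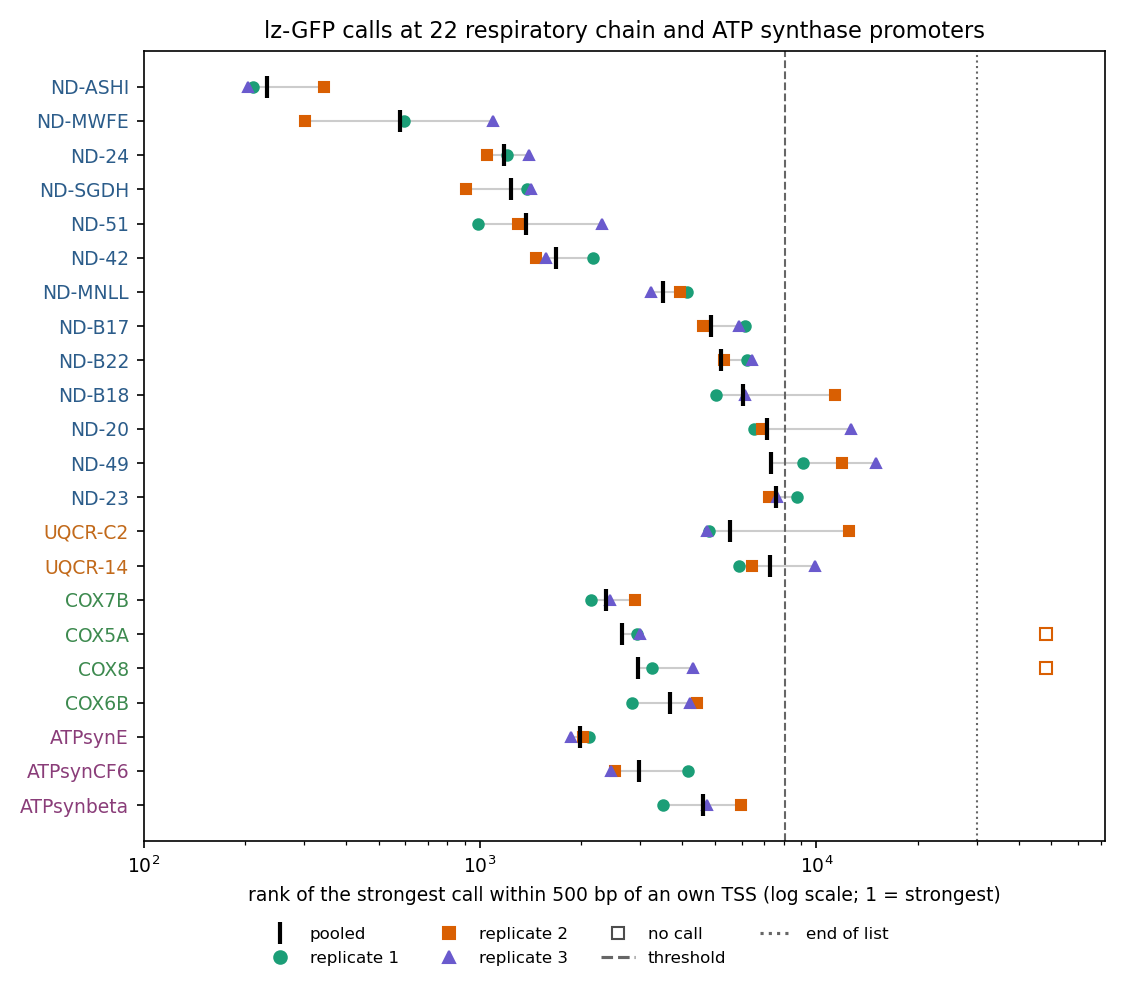
Rank of the strongest call within 500 bp of an own TSS (x axis, log scale, 1 is strongest) for the 22 genes with a promoter summit (y axis, coloured by complex). Black ticks show the pooled list, coloured points the replicates, and open points at the right a replicate without a call; the dashed line is rank 8048 and the dotted line rank 30000. COX5A and COX8 have open points for replicate 2, and ND-49 has all 3 replicate points beyond the dashed line.

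The summits sat close to the starts of these genes. The median position was 89 bp upstream of the nearest own start, against 130 bp upstream for the 3763 protein-coding genes with a promoter summit. Of the 22 strongest summits, 18 were upstream of that start (81.8%, against 87.7% of all genes), and 12 lay within 100 bp. They ranged from 255 bp upstream at ND-42 to 88 bp downstream at ND-24. The nearest start can be an inner one, and 9 of the 22 summits lay inside the gene itself. Among these, the summits of ATPsynbeta, ND-49, ND-B18, UQCR-C2 and COX5A were upstream of an inner start only. By annotation, 10 of the 22 were intergenic, 8 in a 5′ UTR, 4 in an intron and 0 in a coding exon. Summits of other genes were not annotated in this way, so these counts have no background. The median rank of the 22 was 3236, against 3183 for all genes with a promoter summit, so the summits at these genes lay near the middle of the range.

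**Figure D3:**
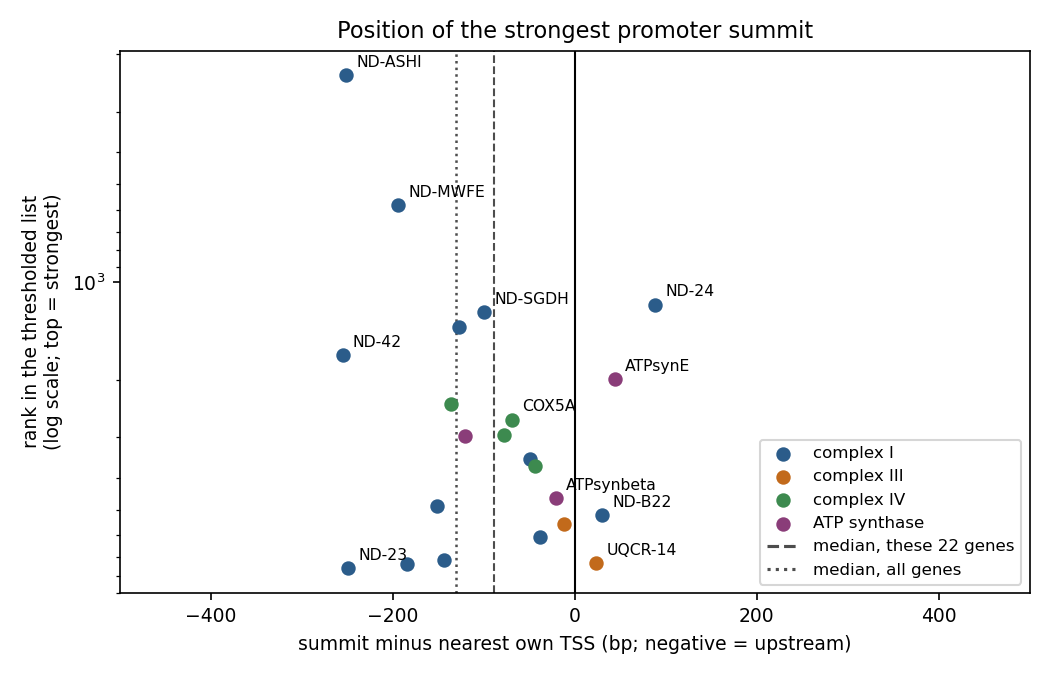
Distance of the strongest promoter summit from the nearest own TSS (x axis, bp, negative is upstream) against its rank in the thresholded list (y axis, log scale, strongest at the top) for the 22 genes, coloured by complex. The dashed line is the median of these genes, 89 bp upstream, and the dotted line that of all genes, 130 bp upstream; 18 of the 22 points lie to the left of the start.

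Many of these promoters are shared with a neighbour. A protein-coding TSS on the other strand within 1 kb, here a head-to-head neighbour, was present at 39 of the 59 standard genes (66.1%), at 3 of the 21 duplicates (14.3%) and at 36.8% of all protein-coding genes. Genome-wide, 46.2% of genes with such a neighbour had a promoter summit and 15.7% of genes without. Among the standard genes the shares were 43.6% (17 of 39) with a neighbour and 25.0% (5 of 20) without. The share of genes with a neighbour therefore moves with the share with a promoter summit across the standard genes, the duplicates and the genome, and its part in the difference was not tested. The 5 genes with a summit and no such neighbour were ND-20, ND-B17, ND-B22, UQCR-14 and UQCR-C2.

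A summit in a shared promoter cannot be given to either gene from its position alone. When each summit was assigned only to the nearest TSS of any gene, 17 of the 22 genes kept theirs. The 5 that did not were ND-MWFE (TppII), ND-51 (CG13994), COX7B (Sec3), ATPsynCF6 (Sec13) and ND-23 (spn-E), with the nearer gene in brackets. Ties counted as kept: a CG45089 start was as near as that of ND-MNLL, at 49 bp. A CG18809 start was as near as that of COX6B, at 44 bp. ND-42 kept only its weaker summit, of rank 1985, because its strongest was nearer to Cchl. The ND-51 summit was 105 bp from CG13994 and 127 bp from ND-51, and the COX7B summit was 124 bp from Sec3 and 136 bp from COX7B, so the summit lies at nearly the same distance from both starts. At the 12 other genes with a summit and a head-to-head neighbour, the neighbours were corolla (ND-24), Fum1 (ND-ASHI), Cchl (ND-42), Ephrin (ND-49), hiw (ND-B18), p115 (ND-MNLL), RhoGAP68F (ND-SGDH), glo (COX5A), CG33932 and Rpp20 (COX6B), VhaM9.7-b (COX8), Afti (ATPsynE) and CG11076 (ATPsynbeta). A neighbour was counted near any own start, so the summit need not lie between the genes. At ND-ASHI and ND-49 no Fum1 or Ephrin start was as near to the strongest summit as their own, at 251 and 184 bp. Other shared promoters join a subunit gene to a further mitochondrial gene without a promoter summit at the subunit gene. ND-B16.6 lies 228 bp from kdn, the citrate synthase gene, with a pooled call of rank 27546, and ATPsynD, whose neighbours are mRpL55 (a mitochondrial ribosomal protein gene) and cdi, the nearest at 95 bp, has a pooled call of rank 17274.

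The summit sequences below are examples: ND-ASHI has the strongest summit and ND-51 is a strong core gene, both without a searched motif, and the other 3 each hold a motif. Each is the summit base of the dm6 genome with 50 bases to either side, read 5′ to 3′ on the strand of the named gene, and capitals mark a match to any searched motif. They come from chrX:6679319-6679419 (minus strand) for ND-ASHI, chr2L:6062834-6062934 (minus) for ND-51, chr3R:15837316-15837416 (minus) for ND-23, chrX:7893797-7893897 (minus) for ND-MNLL and chr3L:21539475-21539575 (minus) for COX8.
ND-ASHI: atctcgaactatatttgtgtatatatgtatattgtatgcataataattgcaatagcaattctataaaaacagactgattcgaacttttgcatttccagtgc
ND-51: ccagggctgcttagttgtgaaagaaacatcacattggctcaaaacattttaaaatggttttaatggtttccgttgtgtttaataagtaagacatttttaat
ND-23: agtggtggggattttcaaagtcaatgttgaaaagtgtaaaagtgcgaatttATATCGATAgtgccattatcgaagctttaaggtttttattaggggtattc
ND-MNLL: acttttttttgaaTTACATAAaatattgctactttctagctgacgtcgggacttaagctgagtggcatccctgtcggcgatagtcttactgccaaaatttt
COX8: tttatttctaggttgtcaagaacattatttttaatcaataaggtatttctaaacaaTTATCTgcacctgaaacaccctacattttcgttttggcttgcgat
The windows of ND-ASHI and ND-51 hold none of the searched motifs. The capitals in ND-23 mark a DRE, the element of the DREF factor of housekeeping promoters, overlapping a BEAF-32 core. Those in ND-MNLL mark an NRG element, reported in *Drosophila* upstream of nuclear genes for mitochondrial proteins, and those in COX8 a GATA match.

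The letters of the Runx consensus were absent from the summit windows. The strings AACCACA and, with another first base, GACCACA were searched on both strands. So were AACCGCA, which differs near its end, and its counterpart with another first base, GACCGCA. These 4 strings occurred in 0 of the 22 windows, against 2.74% of the 3209 thresholded summit windows near any protein-coding TSS. That background is so low that 0 of 22 is not distinguishable from it. The windows were as AT-rich as those elsewhere, with a median of 33.7% G and C (19.8 to 54.5) against 34.7% for all promoter summit windows. In the wider promoter, from 250 bases before to 50 after the gene's 5′ end, the Runx letters were in 9.09% of the genes with a promoter summit (COX5A and ND-B17), 8.11% of the standard genes without, 14.3% of the duplicates and 11.4% of all protein-coding genes. This window was cut at the outermost 5′ end alone. It therefore misses some summits at inner starts, such as those of ATPsynbeta and ND-49.

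Of the 10 motif families searched, the M1BP core, GGTCACACT, stood farthest above its share in all genes. M1BP is a zinc-finger factor of *Drosophila* housekeeping promoters. Its core was in 14 of the 59 standard promoters (23.7%), in 1 of the 21 duplicates (COX7AL) and in 6.04% of all promoters. It was not more common at genes with a summit: 18.2% of the genes with a promoter summit and 27.0% of the standard genes without held it. At some genes with a summit, the searched window at the outermost 5′ end does not contain that summit. The core is shown in capitals, in the gene's orientation, for 4 standard genes, to show that it occurs in either orientation and with and without a promoter summit. The windows are chr2L:19958635-19958675 (plus strand) for COX4, chr3R:11819307-11819347 (plus) for COX5A, chr2L:15751069-15751109 (minus) for ND-B17 and chr3R:31219772-31219812 (minus) for ATPsynC.
COX4: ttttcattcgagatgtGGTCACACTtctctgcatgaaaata
COX5A: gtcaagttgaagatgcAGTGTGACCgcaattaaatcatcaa
ND-B17: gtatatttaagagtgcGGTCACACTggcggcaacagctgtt
ATPsynC: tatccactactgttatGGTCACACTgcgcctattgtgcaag
COX5A and ND-B17 have a promoter summit, and COX4 and ATPsynC do not. Counted from the 5′ end as 0, the core begins at -62 in COX4, -36 in COX5A, -15 in ND-B17 and -166 in ATPsynC. Over the 15 genes with a core, its median start was at -14. None of the 22 summit windows held the core, against 1.43% of the 3209 thresholded summit windows near any protein-coding TSS. That background is so low that 0 of 22 is not distinguishable from it.

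Other motifs were closer to the genome's shares. The DRE, TATCGATA, was in 15.3% of the standard promoters and in 9.36% of all, and the BEAF-32 core, CGATAT, which overlaps the DRE, in 25.4% and 18.6%. Duplicates held the DRE in 0 of 21 promoters. The GATA string AGATAA was in 16.9% of standard and 18.6% of all promoters. The GAGA string GAGAGAG was in 0 of 59 standard promoters and 5.86% of all, and the Ets string CCGGAAG in 0 of 59 and 1.09%. The E-box CACGTG was in 3.39% and 4.20%, the NRF-1 string TGCGCA in 8.47% and 6.95%, and the NRG elements TTACGTAA or TTACATAA in 3.39% and 2.59%, at ND-MNLL and ND-49. All were searched on both strands. A match describes the letters in the window and does not show a bound site.

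**Figure D4:**
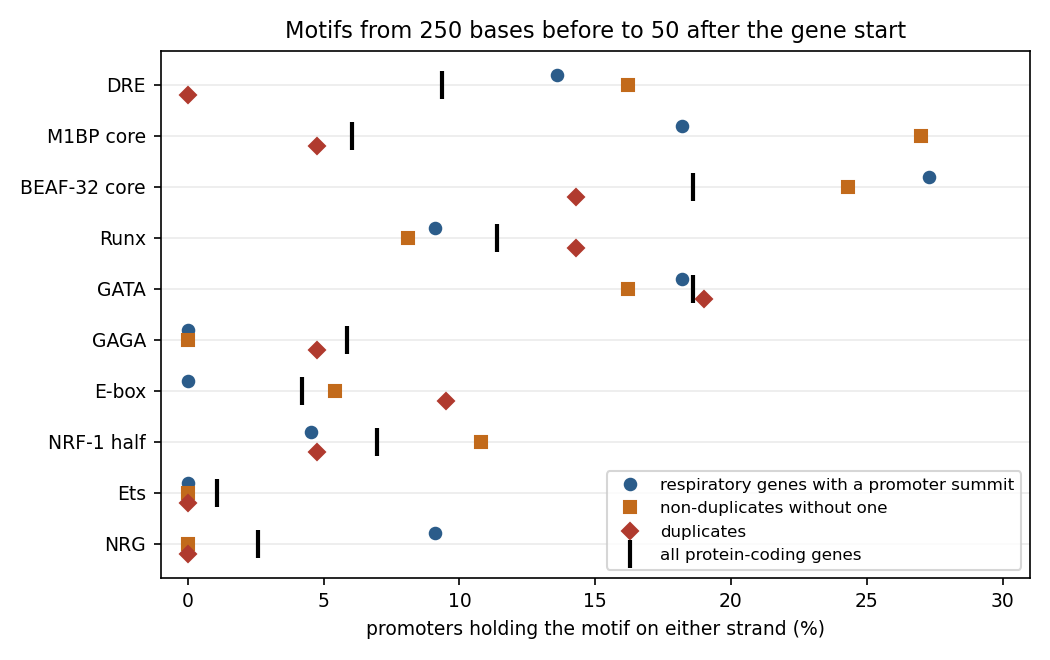
Share of promoters that hold each motif on either strand (x axis, percent), from 250 bases before to 50 after the gene's 5′ end, by motif (y axis). Circles are the 22 genes with a promoter summit, squares the 37 standard genes without, diamonds the 21 duplicates and black ticks all protein-coding genes. For the M1BP core the squares are at 27.0% and the circles at 18.2%, both to the right of the tick at 6.04%.

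The duplicates were compared with the genes they derive from. The 21 duplicates have 18 parent genes, including levy, cype and sun, which the symbol rule does not hold. Of the parents, 8 had a promoter summit and 15 had a pooled call, whereas 0 and 4 of the duplicates did. In 10 pairs the parent had a promoter summit and the duplicate had none. These pairs were ND-20 and ND-20L, ND-24 and ND-24L, ND-49 and ND-49L, ND-51 with ND-51L1 and ND-51L2, UQCR-14 and UQCR-14L, ATPsynCF6 and ATPsynCF6L, ATPsynbeta and ATPsynbetaL, and levy with COX6AL and COX6AL2. No pair went the other way at the threshold.

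For 16 duplicates there was no call at the promoter in the pooled list or in any replicate. Pooled calls at the other duplicates were weak: rank 13980 for UQCR-6.4L, 21418 for ATPsynepsilonL, 23311 for COX7AL2 and 29102 for COX7AL. COX6CL had a call only in replicate 2, of rank 26030. Replicate 2 alone placed duplicates among its strongest 8048 calls, at COX7AL2 (rank 2453) and UQCR-6.4L (rank 7940), against none in replicates 1 and 3. COX7AL2 was the exception in its surroundings, with 3 thresholded summits in its span, the strongest of rank 3171. That summit was 508 bp from a TSS, just past the window, and ranked 3007, 2453 and 4011 in the replicates. The farthest summit inside the window at any of the genes was at ATPsynbeta, 464 bp upstream.

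The duplicates also differed from their parents in position. Of the 18 parents 5 are on the X, and 0 of the 21 duplicates are, where the X holds 2196 of all 13968 protein-coding genes. This difference was not tested. SdhBL, a complex II duplicate outside the symbol rule, is on the X. Of the duplicates, 3 lie within 5 kb of the parent. COX5BL is separated by 122 bp from COX5B, COX7CL by 281 bp from COX7C and COX7AL by 2625 bp from COX7A. None of these 3 parents had a promoter summit, and their pooled ranks were 9693, 8206 and 10974. COX5BL and COX7CL had no call at the promoter in any list.

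**Figure D5:**
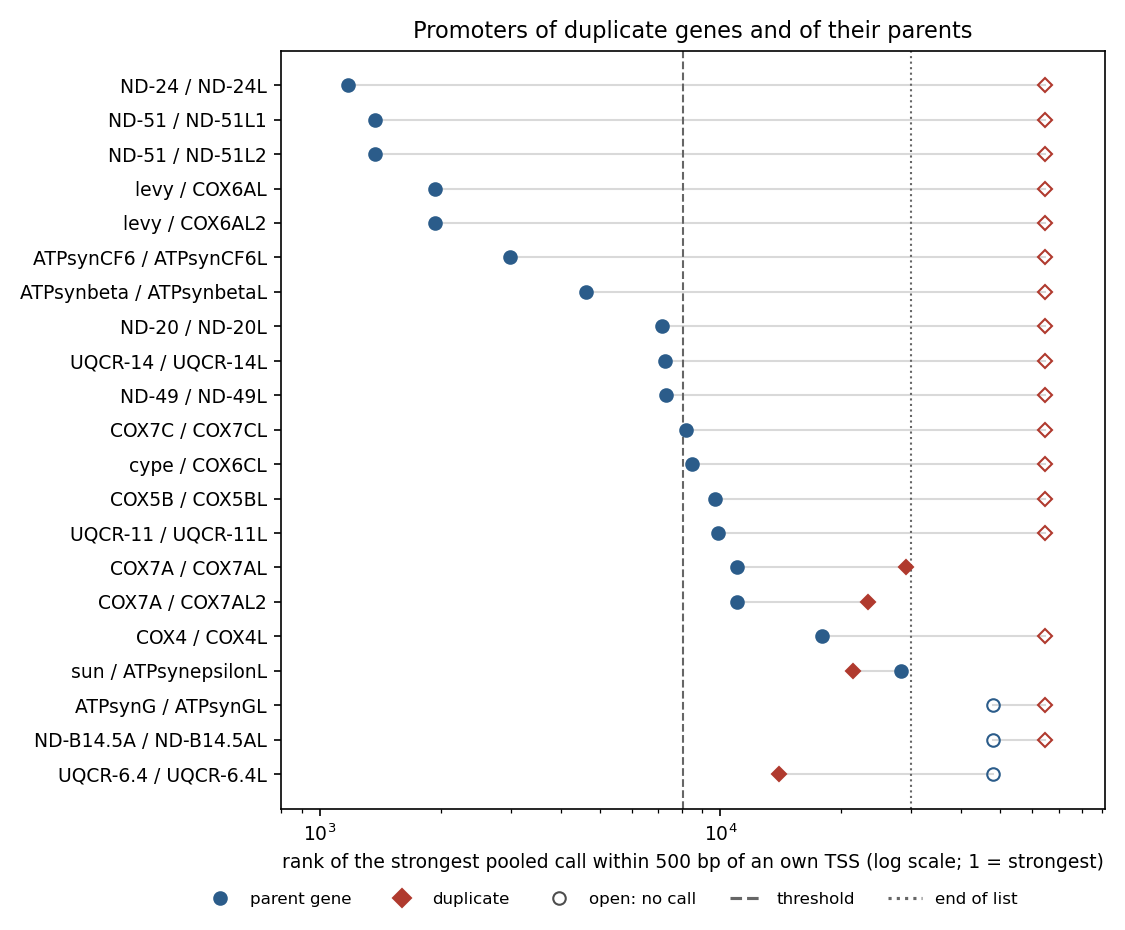
Rank of the strongest pooled call within 500 bp of an own TSS (x axis, log scale, 1 is strongest) for each duplicate (diamonds) and its parent (circles), by pair (y axis). Open symbols at the right are genes with no pooled call, the dashed line is rank 8048 and the dotted line rank 30000. Circles of 10 pairs, which are 8 parents, lie left of the dashed line, and no diamond does; 17 of the 21 diamonds are open.

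By chromosome, the X carried 12 of the genes, none a duplicate, and 7 had a promoter summit (58.3%, interval 32 to 80.7, background of the X 27.6%). They were ND-ASHI, ND-24, ND-MNLL, ND-B18, ND-20, UQCR-14 and COX6B, with 8, 6 and 5 of the 12 in replicates 1, 2 and 3. Without replicate 1, 2 or 3 the count on the X was 4, 5 or 6. Among standard genes alone the X was not highest throughout: arm 3R, with 5 of 11 in the thresholded list, had 54.5% against 50% on the X in replicate 2 and 45.5% against 41.7% in replicate 3. In the whole pooled list, calls were at 66.7% of the X genes, below the standard genes of 2L (83.3%), 3L (100%) and 3R (81.8%). The pooled shares of all protein-coding genes were 55% on the X, 45.4% on 2L, 49.1% on 3L and 48.7% on 3R. Arm 2R carried 9 standard genes and 6 duplicates, and only ND-MWFE had a promoter summit, against 24.7% of all genes on 2R. Both genes on chromosome 4, ND-49 and ATPsynbeta, had promoter summits, against 25% of all protein-coding genes there. Among the strongest calls of each single replicate, only ATPsynbeta had one. The X genes are also rich in head-to-head neighbours (75.0% of them), and the part of that in the share was not tested.

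A thresholded summit within the gene span or 1 kb to either side was found at 29 of the 80 genes (36.2%, background 38.1%). The 7 genes counted here but not at the promoter were ND-15, ND-39, ND-75, UQCR-Q, ATPsynC, ATPsynD and COX7AL2. At ND-39 the peak of rank 817 lay in an intron shared in position with ZnT77C, a zinc transporter gene, 147 bp from a ZnT77C start. At ND-15, whose annotated span contains the start of CG3164, the peak of rank 5986 was 72 bp from that start. For UQCR-Q, ATPsynC and ATPsynD the nearest starts were likewise those of other genes, CG34250, CG15561, and cdi and CG6040. The nearest call of replicate 2 was 5474 bp from the UQCR-Q summit and 10836 bp from that in ND-15.

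At the low end, 12 standard genes had no pooled call at the promoter, and 3 of these, ND-19, ND-B14 and ATPsynG, had none in any of the 4 full lists. ND-18 and ATPsynO had a call only in replicate 1, of rank 7570 and 7940, which was within the strongest 8048 there. Of the 58 genes without a promoter summit in the thresholded list, 15 had one among the strongest calls of a replicate, 14 in 1 replicate and ND-30 in 2, against 9.8% of all protein-coding genes without a promoter summit.

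Genes of the same pathway with other symbols were taken from lists. Of the 6 complex II genes, 2 had promoter summits, against 26.9% of all protein-coding genes. These were SdhC and SdhD, which anchor the complex in the membrane, with pooled ranks of 4258 and 6105. SdhD ranked 4641, 10291 and 6217 in replicates 1, 2 and 3, so it was not among the strongest calls of replicate 2. SdhA and SdhB, the catalytic subunits, had pooled calls of rank 12148 and 10325. SdhB ranked 7320 in replicate 1, among the strongest calls there. The difference between anchor and catalytic subunits was not tested. The duplicates SdhAL and SdhBL had no call at the promoter in any list. Of the further complex III genes, RFeSP (the Rieske iron-sulfur protein) and Cyt-c1L had no call at the promoter, and Cyt-c1 had a pooled call of rank 23137. Cyt-c1L did have 1 thresholded summit within its span or 1 kb to either side. For complex IV and ATP synthase, levy (subunit 6A) ranked 1935 and blw, the alpha subunit that pairs with ATPsynbeta, ranked 909, with 1109, 665 and 880 in the replicates. The pooled calls of cype (rank 8501) and sun (rank 28243) were below the threshold, and the ATP synthase gene knon had none.

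The electron carrier between complexes III and IV is encoded by 2 neighbouring genes. Cyt-c-d, known for its use in spermatogenesis and cell death, had a summit of rank 222, with 209, 217 and 247 in the replicates, at 375 bp inside its start. Cyt-c-p, the form used in most tissues, had a pooled call of rank 11372. None of the 13 genes of the mitochondrial genome had a call, as no list held a call on that chromosome; whether it was removed in processing is not given in the sources used here.

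Among 10 matched assembly factor genes, 3 had promoter summits, a share near the background of 26.9%. CIA30, a complex I assembly factor, had ranks of 55, 48 and 55 in the replicates, Cox17, a copper chaperone of complex IV, had 994, 777 and 1050, and Ttc19, a complex III factor, had 1164, 1264 and 1176. Each was called with nearly the same rank in every replicate, and CIA30 was above every subunit gene. The pooled calls of Surf1, sicily, Coa7 and Ccdc56 were below the threshold, and Scox, Cox10 and Cox11 had no pooled call. Of 10 regulators of mitochondrial biogenesis, only ERR, the estrogen-related receptor, had a promoter summit, ranked 998, 349 and 907, so this list was below that background by count. The PGC-1 homologue srl, PolG1 and Myc had no pooled call at the promoter. PolrMT, the mitochondrial RNA polymerase, had none either, although each replicate had a call there, of rank 6545, 8696 and 5802. The pooled calls of ewg, Ets97D, TFAM, mtTFB1 and mtTFB2 ranked 9346, 18419, 20133, 12406 and 15988, and mtTFB1 shares its position and call with Ccdc56.

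For comparison, promoter summits were found at 38 of 73 mitochondrial ribosomal protein genes (52.1%, interval 40.8 to 63.1) and at 72 of 87 cytoplasmic ones (82.8%, interval 73.5 to 89.3). The share of 37.3% at the standard respiratory genes was lower than either, but the order against the mitochondrial ribosomal genes turned in the whole pooled list, with calls at 79.7% of the standard genes and 72.6% of the mitochondrial ribosomal genes. With a head-to-head neighbour the thresholded share was 43.6% for the standard genes and 65.5% for the mitochondrial ribosomal genes, and without such a neighbour it was 25.0% (5 of 20) and 0% (0 of 15). These differences were not tested.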

How the data were processed

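ChIP-seq peak lists of 3 biological replicates were used on the dm6 build. The deposited signal column is the authors' own signal value per peak and served for ranking inside each list alone, since scales differ between lists. The thresholded list was called on the pooled replicates. Not given in the sources used here are the aligner, the peak caller and the reproducibility level. No control sample was analysed here, and the dm3 lists were not used.

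Gene positions and TSSs came from Ensembl gene models of the same assembly, and sequence from the RefSeq genome of dm6. Coordinates are 1-based. A gene was counted once however many summits it had. The genes, pathway lists and motifs were chosen with earlier results of these data known. Named genes were, per complex, the 4 with the strongest promoter summit, all complex I core genes, all duplicates and parents, genes with a summit in the span but not at a TSS, genes missing from a replicate's strongest calls, up to 5 genes with no pooled call, the pathway lists and head-to-head neighbours. Of 14 assembly factors listed, 10 were matched. Alternatives covered the window (250 and 1000 bp), the outermost 5′ end, the nearest TSS, the peak number, the span (alone or plus 5 kb), and each replicate left out. A left-out replicate still contributed to the thresholded list. Peaks of that list then had to be matched within 100 bp among the strongest 8048 calls of both other replicates, so the match itself can lower a count. No test across genes was run, and the window rules were checked on simulated summits. Intervals are 95% Wilson and cover counting of genes only. Python 3.11.15, numpy 2.4.6, pandas 2.3.3 and matplotlib 3.10.9 were used.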

Additional observations from a re-analysis of the deposited data

How the results depend on the processing

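The count of 22 genes with a promoter summit became 13 with the stronger 4024 thresholded peaks and 51 with the whole pooled list, and ranged from 14 to 18 when each replicate was left out in turn. Leaving out replicate 1, 2 or 3 took the 3763 protein-coding genes with a promoter summit to 2662, 3110 or 2712. The count of 0 duplicates became 1 with a window of 1000 bp and 4 with the whole pooled list. Leaving out a replicate, the 250 bp window, the stronger 4024 peaks, the 5′ end alone and nearest-TSS assignment can only remove summits. They could therefore not change a count of 0. The count of 29 genes by span became 13 for the span alone, 51 with 5 kb, 17 with the stronger 4024 peaks, and 18 to 25 without a replicate. The 14 genes found in all 3 replicates became 8 with 4024 peaks each and 27 with whole lists. Window size, gene 5′ end and nearest-TSS assignment gave 22, 26, 21 and 17 genes in place of 22. Over all counts, by complex and by motif too (promoter against summit window), 49 of 81 alternative values stayed within 1.5 times the reported one. These include the settings that could not move the duplicate count. No paired analysis was possible because there is 1 group. Replicates cannot be compared by depth, since the lists hold no counts, and absence from a list of fixed length does not show absence of binding.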
